A study of Mus musculus with 12 samples.

Results

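LARP1 binding to nuclear mRNAs for the mitochondrial ribosome and the respiratory chain was examined in naive CD4 T cells. The genes were chosen by symbol alone. They were all protein-coding genes of GENCODE M21 on GRCm38 whose symbol begins with Mrpl, Mrps, Nduf, Uqcr, Atp5 or Cox followed by a digit. The rule found 177 genes with 176 symbols among 21768 protein-coding genes outside chromosome Y, because Atp5o has 2 gene identifiers. They are called the members here. Regions are calls before the authors' later selection on reads over input and IgG, and genes with a region are called bound in this sense only. Any region that overlapped an exon of these genes on the same strand was counted, which gave 34 of 3189 regions in the control list and 42 of 2367 regions in that from Rnmt cKO.

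The data came from enhanced crosslinking immunoprecipitation (eCLIP), in which ultraviolet light fixes a protein to RNA in cells and the recovered cDNAs stop beside the crosslinked base. The 2 lists were called from 1 LARP1 immunoprecipitation of each genotype, with a rabbit antibody to LARP1, on naive CD4 T cells of female mice. Naive is the authors' word for these cells. Their eCLIP methods give magnet-sorted CD4 T cells of lymph nodes and name no selection of naive ones. Control mice were Rnmt fl/fl without the CD4cre transgene. Rnmt cKO mice were Rnmt fl/fl with CD4cre, which deletes exon 3 of Rnmt in cells that express, or once expressed, the Cd4 promoter of the transgene, so floxed alleles were shared by both genotypes and Cre was not. RNMT methylates the guanosine of the mRNA cap. With 1 library per genotype no difference between the lists could be tested, the sequencing depth cannot be read from the lists, and intervals below are 95% Wilson intervals for shares, which cover counting error over genes or regions and not the spread between mice. The lists themselves do not check the genotype, as Rnmt had no exonic region in either. Cd4 had 1 exonic region in each list, whereas Cd3e, Cd3g and Cd8a had none, and since binding is not expression this says little about the purity of the cells.

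The mitochondrial ribosome translates the few mRNAs of the mitochondrial genome, and all of its proteins (MRPL for the large subunit, MRPS for the small one) are made in the cytosol from nuclear mRNAs. The same is true of most subunits of complex I (NDUF), complex III (UQCR), cytochrome c oxidase (COX) and ATP synthase (ATP5), which together pass electrons to oxygen and make ATP. LARP1 binds the cap and the first bases of mRNAs that begin with a C and a run of pyrimidines, the 5' terminal oligopyrimidine (TOP) motif, best known from the mRNAs of cytosolic ribosomal proteins. Naive T cells are small and quiescent, and both kinds of ribosome and the respiratory chain expand when they are activated.

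The sequences on which the description turns are those around the first base of each region. Printed first are the 12 5'UTR regions found in both lists that ranked highest and had an entry in the promoter sequences used. Each window is 25 nt of the sense strand, 5' to 3', from RefSeq promoter entries and GENCODE transcripts on GRCm38. Base 13 is the first base of the region, the one farthest 5' where the lists differ, and capitals mark the unbroken run of C and T that holds this base. Windows reach upstream of the annotated start where the region lies on it.
Cox7a2l (chr17:83514314-83514338, minus strand): agccgggTCCTTTTCTagggcggtc
Uqcrh (chr4:116075019-116075043, minus strand): ttactagTCCTTCTTaaacctgaag
Cox7c (chr13:86046775-86046799, minus strand): tcccaTCTTCCCTTTCggtcttcgc
Atp5h (chr11:115419933-115419957, minus strand): cttccggcaaCTCTCTTCCgttcct
Mrpl52 (chr14:54426901-54426925, plus strand): gccacgcccaCTTCCggttcccttg
Atp5j2 (chr5:145191544-145191568, minus strand): ttcccagcagCCTTTgcgcgcggct
Atp5f1 (chr3:105959247-105959271, minus strand): gagcggccaTCTTgctcctgcccct
Mrpl33 (chr5:31613956-31613980, plus strand): agtcgttgagCTCTTTaggcgggtc
Uqcrfs1 (chr13:30545304-30545328, minus strand): cgcctcccgCTCCTCTTCgggccgt
Mrpl23 (chr7:142533139-142533163, plus strand): gcgggtgtcgCTCCTTCCTgaccag
Cox8a (chr19:7217551-7217575, minus strand): ggttcggccaTCTTgactccctgac
Mrpl24 (chr3:87919536-87919560, plus strand): ttcctgtccaTTTTgtagcaacgga
Beside them are the 3 highest-ranked windows among members with a 5'UTR region in the Rnmt cKO list alone. The run has 3 bases in Atp5c1 and 4 in Cox7b, the latter as in Atp5f1, Cox8a and Mrpl24. In Ndufa10 the first base of the region is not a pyrimidine, so nothing is in capitals.
Atp5c1 (chr2:10080415-10080439, minus strand): actgagtcccgTCTgcccgaccttc
Ndufa10 (chr1:92473755-92473779, minus strand): tcatgtccctctggtccttgagccg
Cox7b (chrX:106015729-106015753, plus strand): ctgaaagccaTTTTgtttttcagga

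LARP1 regions lay in exons of 30 of the 177 genes in the control list (16.9%, interval 12.1 to 23.2%) and of 33 in that from Rnmt cKO (18.6%, 13.6 to 25.03%). Over all protein-coding genes the shares with an exonic region were 2.61% and 3.2%. Of the mitochondrial genes, 27 (15.3%, 10.7 to 21.3%) had an exonic region in both lists, against 1.67% of all protein-coding genes. In either list it was 36 (20.3%, 15.1 to 26.9%), against 4.14%, and the other 141 had none. The mitochondrial genes thus stood between the 94 cytosolic ribosomal protein genes, of which 84.0% and 86.2% had a region, and the 21497 remaining protein-coding genes, of which 2.14% and 2.71% did. A region needs the RNA to be present, the lists hold no RNA level, and the part of mRNA abundance in these shares was not tested. In RNA from a population of cells, fewer cells of a type and less RNA per cell cannot be told apart.

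Binding in the 5'UTR accounted for most of the genes. A 5'UTR region was present for 27 mitochondrial genes in the control list (all protein-coding genes, 1.33%) and for 29 in that from Rnmt cKO (all protein-coding genes, 1.5%). Of these, 24 (13.6%, 9.28 to 19.4%) had one in both lists, against 1.08% of all protein-coding genes and 0.637% of those outside both families. The count in either list was 32, against 1.75%.

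The complexes differed in the share of their genes with a region. ATP synthase had the highest share, with 11 of 18 Atp5 genes (61.1%, 38.6 to 79.7%) in either list. The Uqcr genes followed with 3 of 8 (37.5%, 13.7 to 69.4%), the Cox genes with 7 of 27 (25.9%, 13.2 to 44.7%) and the Nduf genes with 8 of 46 (17.4%, 9.09 to 30.7%). The mitoribosome was lowest, with 6 of 49 Mrpl genes (12.2%, 5.73 to 24.2%) and 1 of 29 Mrps genes (3.45%, 0.611 to 17.2%). Intervals of neighbours in this order overlapped throughout. Pooled, 29 of 99 respiratory chain genes (29.3%, 21.2 to 38.9%) and 7 of 78 mitoribosome genes (8.97%, 4.42 to 17.4%) had a region, and these 2 intervals did not overlap. The pooled share includes the 11 Atp5 genes. Atp5 was the only one of the 4 prefixes whose own interval lay clear of that of the pooled mitoribosome genes, and those of Nduf, Cox and Uqcr overlapped it. The 1 of 29 Mrps genes was near the background of 4.14% of all protein-coding genes, as was the count for the 17 assembly factors among the members, which build complexes without staying in them (Cox16, 5.88%).

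**Figure D1:**
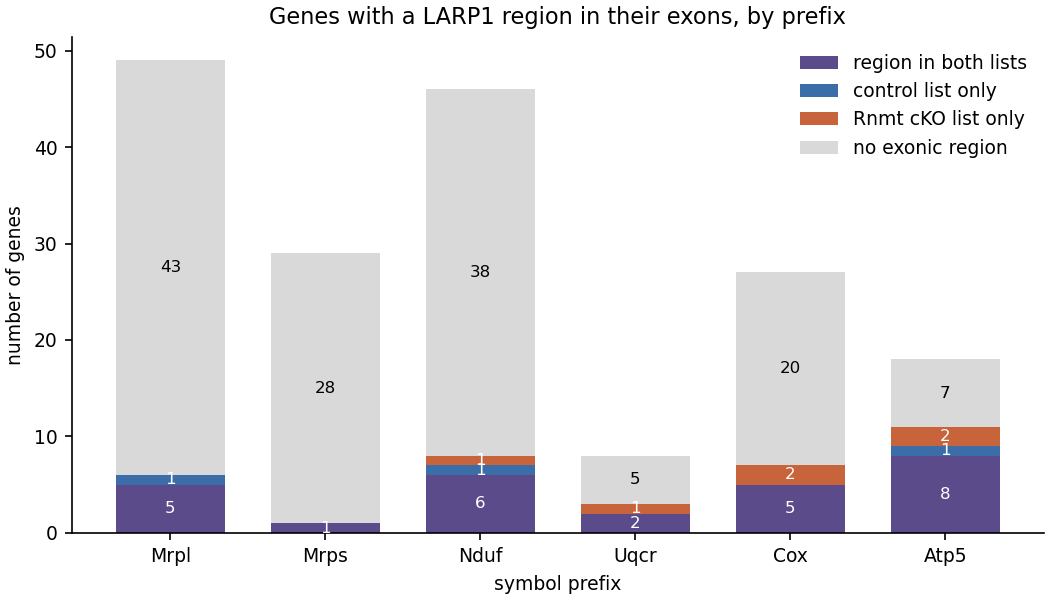
Number of genes (y axis) for each symbol prefix (x axis), split into genes with an exonic LARP1 region in both lists, in the control list only, in the Rnmt cKO list only, and in neither. Atp5 is the prefix with more genes that have a region (11) than genes without (7), whereas 28 of 29 Mrps genes had none.

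Of the ATP synthase genes, Atp5a1, Atp5e, Atp5f1, Atp5h, Atp5j2, Atp5l, Atp5mpl and the Atp5o gene ENSMUSG00000022956.11 had a region in both lists. They encode the alpha subunit of the catalytic head (Atp5a1), the epsilon subunit of the central stalk (Atp5e), the b and d subunits and the oligomycin sensitivity protein of the peripheral stalk (Atp5f1, Atp5h, Atp5o), and small membrane subunits (Atp5j2, Atp5l, Atp5mpl). Central stalk subunits appeared in 1 list each, Atp5d (delta) in the control list and Atp5c1 (gamma) in that from Rnmt cKO. Atp5k, a membrane subunit, had a coding region of low rank in the Rnmt cKO list only. No region was found for Atp5b, the catalytic beta subunit, for the c-ring genes Atp5g1, Atp5g2 and Atp5g3, for Atp5j or Atp5s, or for the other Atp5o identifier.

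In cytochrome c oxidase, the nuclear subunit genes Cox4i1, Cox6c, Cox7c and Cox8a and the supercomplex factor Cox7a2l had 5'UTR regions in both lists. Cox7b, another subunit, and Cox16, an assembly factor, had theirs in the Rnmt cKO list only. In complex III, Uqcrh, the hinge protein, and Uqcrfs1, the Rieske iron-sulfur protein, had 5'UTR regions in both lists, whereas Uqcrc2, a core protein, had a coding region in the Rnmt cKO list only. In complex I, the accessory subunit genes Ndufa2, Ndufa3, Ndufb5 and Ndufb11 had 5'UTR regions in both lists. Ndufa6, an accessory subunit, had a coding region at the same base in both. Ndufv3 was found in the control list and Ndufa10 in that from Rnmt cKO. For the mitoribosome, Mrpl23, Mrpl24, Mrpl30, Mrpl33 and Mrpl52 had 5'UTR regions in both lists. Mrpl3 had a region in the control list alone. Mrps16 had a coding region in the control list and a 5'UTR region in that from Rnmt cKO.

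Where the regions lay within these mRNAs differed from other genes. Of the 34 control regions, 27 were in a 5'UTR (79.4%, 63.2 to 89.7%), 3 in a 3'UTR, 2 in coding sequence and 2 in exons of non-coding transcripts of the genes. Of the 42 Rnmt cKO regions, 30 were in a 5'UTR (71.4%, 56.4 to 82.8%), 10 in coding sequence and 2 in a 3'UTR. Among exonic regions of the remaining protein-coding genes, 35.9% and 25.6% were in a 5'UTR, and 35.1% and 45.5% were in a 3'UTR. Ribosomal protein genes had 42.2% and 25.8% of their regions in the 5'UTR and most of the rest in coding sequence (55.9% and 71.7%). The 5'UTR share of the mitochondrial genes was therefore the highest of the 3 groups in each list, with an interval that overlapped neither of the others.

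Most of the regions sat at a transcription start site (TSS). The first base of the region lay within 50 nt of an annotated start in 28 of 34 control regions (82.4%, 66.5 to 91.7%) and in 29 of the 42 from Rnmt cKO (69.0%, 54.0 to 80.9%). The shares were 33.0% and 22.4% for other protein-coding genes and 41.7% and 27.5% for ribosomal protein genes. For regions within the 5'UTR, 26 of 27 and 27 of 30 were that near, with a median distance of 1 nt downstream of the start in the control list and 0.5 nt in that from Rnmt cKO. This part of the pattern was close to that of other 5'UTR regions, of which 85.1% and 78.3% were within 50 nt. A region upstream of its nearest start lies in the 5'UTR of a longer transcript of the same gene. Counted instead from the nearest start at or upstream of the region, the median distances were 23 nt (range 0 to 139) and 20.5 nt (range 0 to 906). The farthest was Atp5o, with a Rnmt cKO region of 5.30 percentile.

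**Figure D2:**
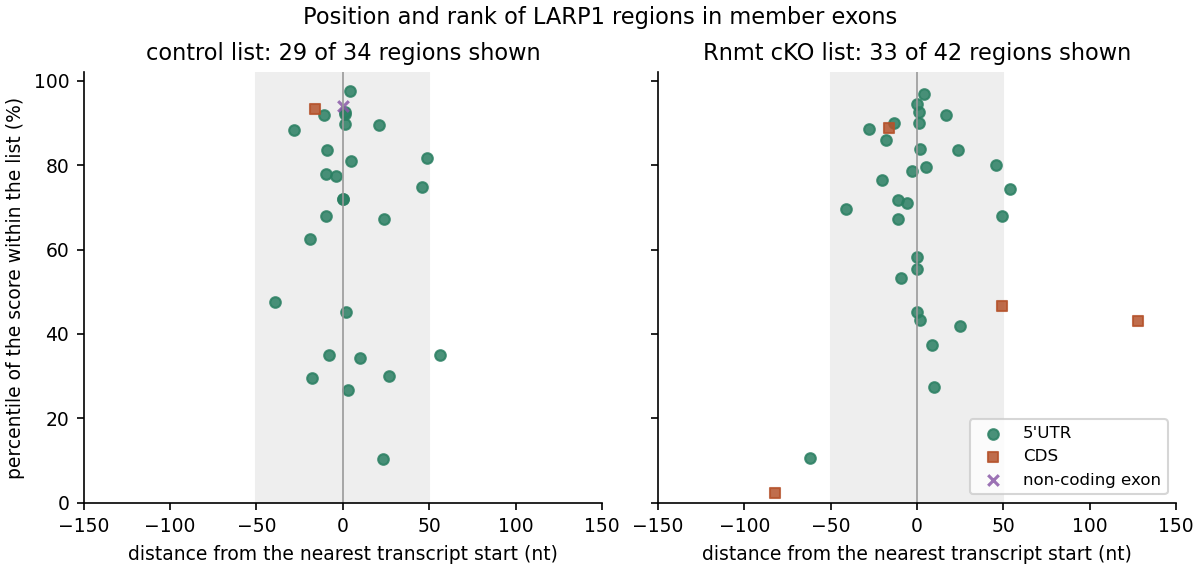
Exonic regions of the mitochondrial genes within 150 nt of an annotated start, with the signed distance in nt on the x axis (negative is upstream of the nearest start) and the percentile of the region score within its list on the y axis; points are regions, shapes give the exon class, and grey marks 50 nt on either side. In both lists the points gather in the grey band over nearly the whole range of ranks, and Mrps16 and Ndufb11 are the 5'UTR regions shown outside it.

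Scores were read as ranks within a list, since PureCLIP fits a separate model to every library and sets the score by it. The percentile is the position of a region among all regions of its list, with high values for high scores. The highest member region in both lists was in the 5'UTR of Cox7a2l, which helps join cytochrome c oxidase to complex III. It covered bases 83514325 to 83514326 of chromosome 17 in the control list, at rank 77, and 83514324 to 83514326 in the Rnmt cKO list, at rank 75. Its first base lay 4 nt downstream of a start, in the run TCCTTTTCT shown above. After it in the control list came Mrpl3 at rank 192, Ndufa6 at rank 211, Uqcrh at rank 238 and Atp5mpl at rank 254. In the Rnmt cKO list it was followed by Uqcrh at rank 130, Atp5mpl at rank 178, Atp5h at rank 192 and Mrpl52 at rank 236.

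Uqcrh had its region at chromosome 4, bases 116075029 to 116075030 in the control list and 116075028 to 116075031 in that from Rnmt cKO, 1 nt and 0 nt from a start. The Atp5mpl region covered the same bases in both lists, 111966973 to 111966976 of chromosome 12, 1 nt from a start. The Atp5h region was base 115419941 of chromosome 11 in the control list and bases 115419940 to 115419945 in that from Rnmt cKO, 21 nt and 17 nt from a start. The Rnmt cKO region of Mrpl33 also touched an exon of the non-coding gene Gm43809. Mrpl52 had the single base 54426913 of chromosome 14 in both lists, 1 nt from a start. The Ndufa6 region was also a single base in both lists, 82354205 of chromosome 15. It was the only member with a high-ranking region in coding sequence, at percentiles 93.4 and 88.9, and lay 16 nt upstream of its nearest start and 32 nt downstream of another. The Mrpl3 region, base 105064805 of chromosome 9, was the start of a non-coding transcript inside the gene and overlapped a further annotated gene, Gm38077, so that its source is uncertain.

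For the mitochondrial 5'UTR regions, the median percentile was 72.0 (binomial interval of the median 45.1 to 83.6) in the control list and 73.0 (58.3 to 83.7) in that from Rnmt cKO. Other protein-coding 5'UTR regions had medians of 67.6 and 67.4, within those intervals. The percentile in the control list depended on which regions it was ranked among. A minimum of 2 sites also took the single-site regions, 82.6% of the control list, out of the ranking. The medians of a list below are therefore not places in the same ranking. Over all member exonic regions the control median was 70.0, against 67.6 in Rnmt cKO. When regions with at least 2 sites were ranked among themselves, the medians were 35.5 (23.6 to 67.8) and 59.4. Scores repeated 20 or more times were held by 1091 control and 35 Rnmt cKO regions, none of them in a member. Without those regions the medians were 61.2 and 67.2, and with equally long lists 62.3 and 67.6. Ribosomal protein 5'UTR regions were far above at 97.9 and 97.4, and Cox7a2l, at 97.6 and 96.9, was the mitochondrial gene nearest to them. Apart from ranks, scores were added up within each list. Member regions carried 1.02% of the control total, against 40.6% for ribosomal protein regions. In the Rnmt cKO list these shares were 1.35% and 58.9%. The scores come from separate models and add up over sites, so the shares were not compared between lists. By complex, the medians in the control list were 83.7 for Uqcr, 81.7 for Cox, 77.9 for Mrpl, 72.0 for Atp5 and 51.1 for Nduf, and in the Rnmt cKO list 87.2, 76.4, 71.0, 79.6 and 62.8. Those of Uqcr rest on 2 regions in each list and the others on 5 to 9 regions, and the ranges of the others overlapped.

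The 24 genes with a 5'UTR region in both lists had it at the same place in each. All 24 pairs overlapped, 13 began on the same base, and the largest shift of the first base was 4 nt, in Atp5h and Mrpl23. This was not particular to them, as 133 of 137 pairs of other protein-coding genes and 75 of 75 of ribosomal protein genes began within 5 nt of each other, 66 and 38 of them on the same base. The percentile was higher in the Rnmt cKO list for 14 of the 24 genes and lower for 10, with a median difference (Rnmt cKO minus control) of 0.40 percentile points. For the other protein-coding genes it was higher for 63 of 137 pairs, with a median of -0.39.

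The shift of single genes varied. Cox4i1, which encodes the largest nuclear subunit of cytochrome c oxidase, moved from percentile 29.5 to 85.9 over the same 6 bases, which held 2 crosslink sites in the control list and 6 in that from Rnmt cKO. Ndufb11 moved from 35.0 to 74.4, Atp5l from 34.9 to 71.6 and Atp5o from 47.6 to 69.6. Each had 1 site in the control list, against 5, 3 and 3 in that from Rnmt cKO. Ndufa2, Cox8a and Atp5a1 had higher percentiles in Rnmt cKO by 16.5, 14.0 and 11.9 points. Of these, Ndufa2 and Cox8a had more sites there and Atp5a1 the same number. A score adds up over the sites of its region, so ranks and site numbers are not separate measures. In the opposite direction, Mrpl24 moved from 83.6 to 53.2 at a single base, Ndufa3 from 72.0 to 58.3 and Cox6c from 81.7 to 68.0. Ndufa3 went from 3 sites to 1, whereas Mrpl24 and Cox6c kept the same number. The rest, Cox7a2l and Uqcrh among them, moved by at most 6.94 points. Such shifts were also seen elsewhere, as the pairs of other protein-coding genes ranged from -63.5 to 85.5 points. There is no replicate against which to judge any of them.

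**Figure D3:**
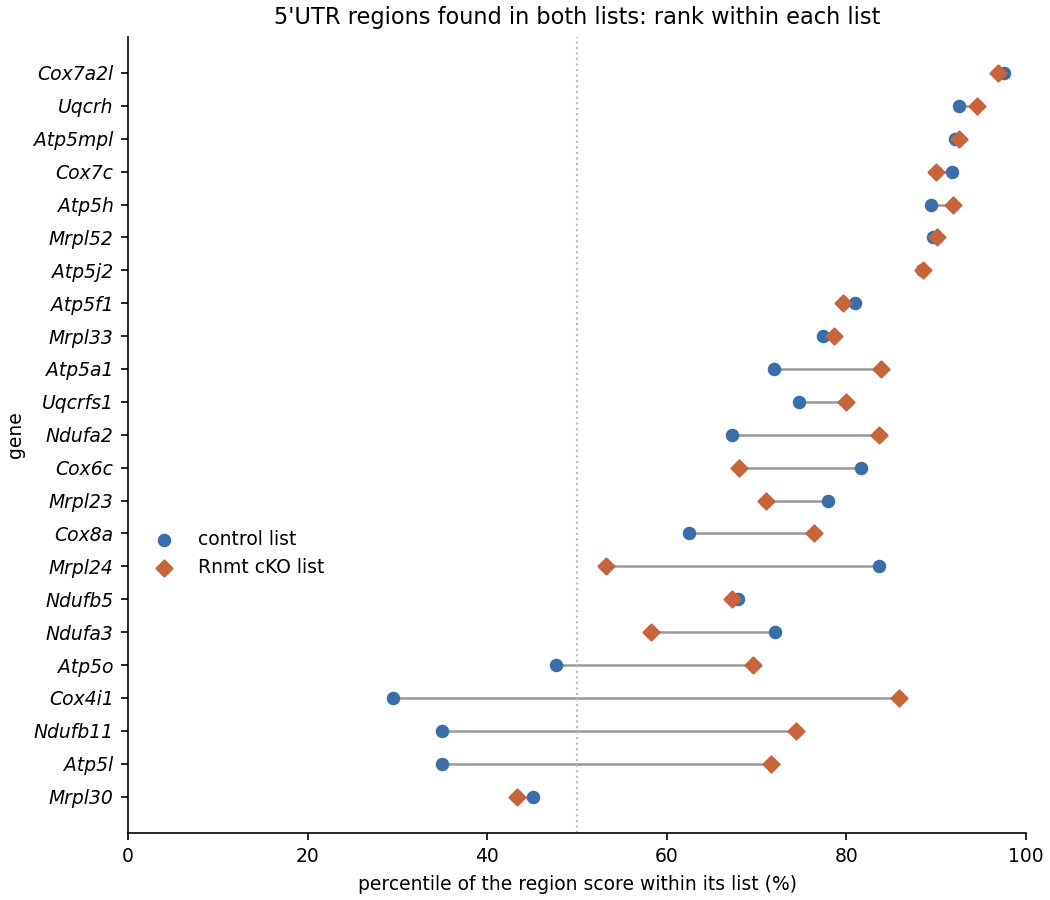
Percentile of the region score within its list (x axis, %) for 23 of the 24 genes with a 5'UTR region in both lists (y axis, ordered by mean percentile); circles are the control list, diamonds the Rnmt cKO list, lines join the 2 values of a gene, and the dotted line marks the middle of a list. Genes at the top have little room to differ in an order by mean percentile, and Cox4i1 and Mrpl24 have the longest lines in either direction (29.5 to 85.9 and 83.6 to 53.2).

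Regions held more crosslink sites in the Rnmt cKO list. Of the 24 pairs, 16 had more sites there, 6 the same number and 2 fewer (Mrpl23 and Ndufa3). The same counts were 86, 39 and 12 of 137 for other protein-coding genes and 63, 12 and 0 of 75 for ribosomal protein genes, so the shift was shared by the whole list. Over the whole lists, 82.6% of control and 54.7% of Rnmt cKO regions had a single site. Among member regions, 15 of 34 (44.1%) and 23 of 42 (54.8%) had at least 2 sites.

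Coding regions were the class in which the lists differed most. The control list had 2, in Ndufa6 and Mrps16. The Rnmt cKO list had the same Ndufa6 region and 9 others, in Atp5e, Atp5h, Atp5k, Cox6c, Ndufb5, Uqcrc2, Uqcrfs1 and, with 2 regions, Uqcrh. Except in Atp5k and Uqcrc2, these genes also had a 5'UTR region in at least 1 of the lists. The ranks were low, from percentile 2.22 (Cox6c) to 56.0 (Uqcrfs1), and 7 of the 9 were single bases. Coding regions of ribosomal protein genes also numbered more in the Rnmt cKO list, 256 against 114, as did those of other protein-coding genes, 155 against 86.

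Binding at the 3' end was rare but repeated. Atp5e had a 3'UTR region at base 174461204 of chromosome 2 in both lists, at percentiles 36.8 and 74.0. Cox7a2l had one at base 83502014 of chromosome 17 in both, at percentiles 27.5 and 67.2. Atp5j2 had a 3'UTR region in the control list only, at percentile 6.44. The genes found in the control list alone had low 5'UTR percentiles, 29.9 for Atp5d and 10.4 for Ndufv3, apart from the Mrpl3 region. The Atp5e 5'UTR region, at 26.8, was also in the control list only. Those of the Rnmt cKO list alone were at 55.4 for Atp5c1, 45.2 for Ndufa10, 42.0 for Cox7b, 37.5 for Cox16 and 10.7 for the 5'UTR region of Mrps16. For 5'UTR regions, 3 members were in the control list only and 5 in the Rnmt cKO list only, against 0.248% and 0.413% of all protein-coding genes. The shares of genes with an exonic region in 1 list only were 1.69% for the control list and 3.39% for that from Rnmt cKO, and over all protein-coding genes they were 0.942% and 1.53%. Members more often had any region. Counted over genes with an exonic region in either list, those in 1 list only were 3 and 6 of 36 members. For all protein-coding genes they were 205 and 333 of 901, so the share was lower among members.

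The bases at the regions were pyrimidines in most genes. Windows were available for 21 of the 27 control 5'UTR regions and 24 of the 30 Rnmt cKO ones. The base before the first base of the region was C or T in all 21 and all 24, and it was T in 85.7% and 75%. T was also the most common base there in other protein-coding regions (72.5% and 64.4%) and in ribosomal protein regions (54.5% and 50%). The first base itself was C or T in 85.7% and 83.3%. Over 15 nt centred on it, C and T made up 71.7% ± 11.3 (SD, n = 21 regions) and 70.6% ± 11.3 (SD, n = 24 regions). Other protein-coding 5'UTR regions had 71.7% and 69.4%, and ribosomal protein regions 81.1% and 80.0%. The run of C and T that held the first base was at least 5 nt long in 14 of 21 and 14 of 24 mitochondrial windows, as in 69.7% and 64.4% of other protein-coding windows and in 86.4% and 81.4% of ribosomal protein windows. The mitochondrial windows thus had the pyrimidine content of other bound 5'UTRs and shorter runs than the ribosomal protein mRNAs, with a median of 7 nt and 5.5 nt against 11 nt in both lists.

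**Figure D4:**
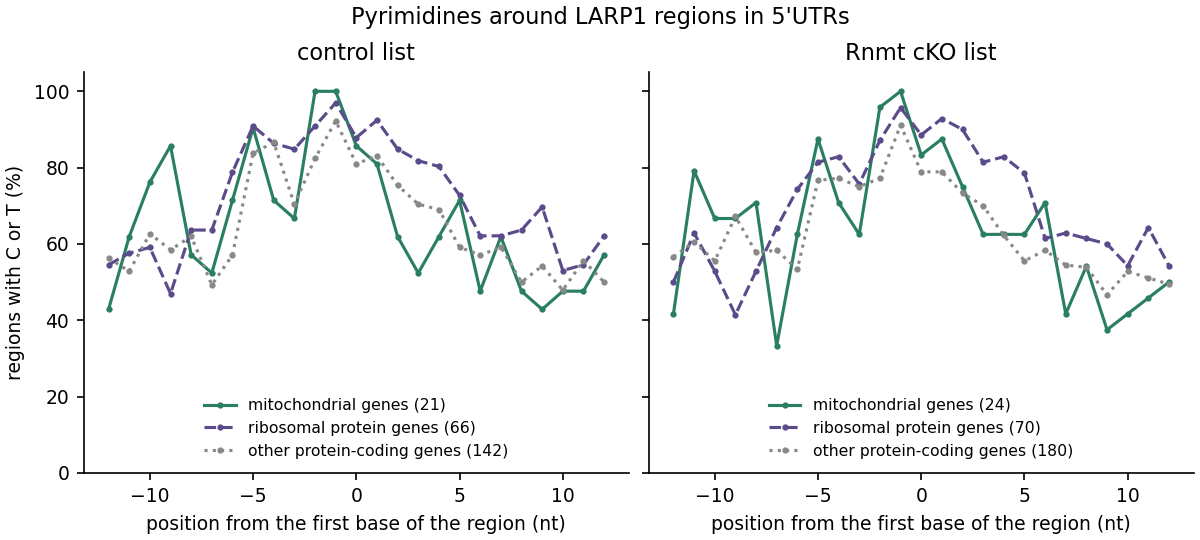
Share of 5'UTR regions with C or T (y axis, %) at each position from the first base of the region (x axis, nt, negative is 5'), for mitochondrial, ribosomal protein and other protein-coding genes, with the number of regions in brackets. All 3 groups are above 90% at the base before the region, where the mitochondrial genes reach 100% in both lists, and the ribosomal protein curve is the highest from 1 to 5 nt after the first base.

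The most common place of the crosslink in the run was base 3, though in a minority of the windows. It was picked for being the most common, and the shares are given without intervals. Ribosomal protein runs were also longer, with a median of 11 nt, so places in them are not directly comparable. The first base was base 3 of the run in 6 of 21 control windows (28.6%) and 9 of 24 Rnmt cKO windows (37.5%). The shares were 18.3% and 11.7% for other protein-coding genes and 6.06% and 11.4% for ribosomal protein genes. This place can be seen at base 13 of the windows printed for Atp5h, Mrpl52, Atp5j2, Mrpl33, Mrpl23, Cox8a, Mrpl24 and Cox7b.

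A pair of motifs was read off the member windows after they had been seen, so their counts are a description. CCATNTTG was present on the sense strand in 4 of 27 member windows (14.8%), those of Atp5f1, Cox8a, Mrpl24 and Cox7b, and on the opposite strand in none. In windows of other protein-coding 5'UTR regions it was present in 3.52% of the control list and 2.22% of that from Rnmt cKO. In 25 nt windows centred on the start of every promoter entry it was in 0.268% on the sense strand and 0.204% on the other. CTTCCG was present on the sense strand in 6 member windows (22.2%), those of Atp5e, Atp5h, Atp5l, Mrpl30, Mrpl52 and Ndufb5, and on the opposite strand in none. The shares were 7.04% and 5.56% in the windows of other protein-coding regions, and at all promoter entries 1.51% on the sense strand and 1.56% on the other. Most windows sat on C or T of the sense strand, so for either motif their opposite strand is not an equal background. The promoter windows were centred on starts instead. No member window held both motifs. CCATNTTG resembles the sequence bound by YY1 and CTTCCG the core bound by ETS factors, both frequent at the promoters of mitochondrial genes, but a match in a window is neither a bound site nor a cause.

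The share of TOP-like starts was higher among bound members than among unbound ones, but the intervals overlapped or nearly met. A start was called TOP-like if a C was followed by at least 4 C or T. At the RefSeq start itself this held for 3 of the 26 mitochondrial genes with a 5'UTR region and an entry (11.5%, 4.00 to 29.0%), namely Atp5d, Ndufb11 and Uqcrfs1. It held for 1 of 121 members without an exonic region (0.826%, 0.146 to 4.53%), Atp5g2, and for 2.70% of all protein-coding genes and 22.4% of ribosomal protein genes. Within 5 nt of the start it held for 12 of 26 (46.2%, 28.8 to 64.5%), 25 of 121 (20.7%, 14.4 to 28.7%), 21.8% and 46.3%. Among other protein-coding genes with a 5'UTR region the shares were 6.94% at the start and 36.1% within 5 nt. Of the members with a 5'UTR region in both lists and an entry, 8 of 18 had one within 5 nt (44.4%, 24.6 to 66.3%). That interval overlapped the one of members without an exonic region. Seen from the other side, of the 39 members with a TOP-like start within 5 nt, 12 had a 5'UTR region (30.8%, 18.6 to 46.4%), as did 14 of the 111 without (12.6%, 7.66 to 20.1%). Annotated starts may differ from those used in these cells, and which base began each bound mRNA was not measured.

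The bound mRNAs were short, as are those of the family. Where both lists held a 5'UTR region (24 genes), median lengths were 751.5 nt for the mRNA, 427.5 nt for the coding sequence and 132 nt for the 5'UTR. For the 141 members without a region they were 1082, 519 and 86 nt. Ribosomal protein genes had medians of 834, 453 and 100.5 nt, and other protein-coding genes with a 5'UTR region 2009, 963 and 155 nt. Interquartile ranges of the bound and unbound members overlapped for the mRNA (549.25 to 1091.5 and 701 to 1764 nt).

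Other genes of the same pathways, which do not carry these prefixes, had few regions, and these short lists cannot be told from the background of 4.14% of all protein-coding genes in either list. None was found in the exons of 5 further mitoribosome genes such as Dap3 and Ptcd3, 9 mitochondrial translation factors such as Tufm, 7 further respiratory chain genes such as the Sdh genes and Cyc1, or 24 further assembly factors such as Surf1. Of 25 genes of protein import with Timm or Tomm symbols, 1 had regions (4%). This was Tomm7, a small subunit of the outer membrane translocase, with a 5'UTR region at base 23844137 of chromosome 5, 24 nt from a start, in both lists at percentiles 89.5 and 84.4, and a control coding region at 6.10. None of the 13 mRNAs of the mitochondrial genome had a region, and chromosome M had 0 regions in each list, so that all regions of the respiratory chain were on nuclear transcripts.

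The strand that does not encode the members served as background. The only member with a region opposite an exon was Mrpl47, with 1 in the control list and 2 in that from Rnmt cKO. These were the regions of Ndufb5, whose gene overlaps its start on the other strand. Over all protein-coding genes the share with a region opposite an exon was 0.395% in the control list and 0.106% in that from Rnmt cKO.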

How the data were processed

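Of 12 libraries in the series, 2 LARP1 immunoprecipitations were used through their region lists. Naive CD4 T cells received 400 mJ of 254 nm light. The authors moved the 10 nt barcode of each read to its name (UMI-tools), trimmed adapters (cutadapt), aligned reads to mm10 with STAR 2.5.2b, removed barcode duplicates and dropped secondary alignments and those with a mapping quality under 20 (SAMtools), which removes many reads shared with processed pseudogenes. They called regions with PureCLIP, learned on chromosomes 1 to 5 with the size-matched input of the genotype, and joined sites within 30 nt. In all 5556 regions compared, the deposited score of the region equalled the added scores of its crosslink sites. The authors' later selection on reads over input and IgG was not applied here.

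Regions on chromosome Y were left out. Each remaining region took the first class that applied of 5'UTR, CDS, 3'UTR and non-coding exon, over all transcripts of GENCODE M21 (GRCm38). The annotation step was tested on simulated regions. Every member with a region is named except 1, which is counted but not reported here, and sequences follow a rule on rank. Members and lists were chosen with earlier results of these data known. Overlap meant at least 1 nt on the same strand. Intervals are 95% Wilson or binomial ones (scipy 1.17.1, pandas 2.3.3). Promoter entries were found for 28 of the 34 members with a region in the 5'UTR or within 50 nt of a start, and windows for 27. No test between genotypes was possible with 1 library each. Alternatives changed the annotation, distance, site minimum and score minimum.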

Additional observations from a re-analysis of the deposited data

How the results depend on the processing

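Of 96 alternative values, 79 were called the same and 17 moved. To be called the same, a count had to stay within 1.5 times the value reported. A share or median had to stay within the interval of the value reported. With at least 2 crosslink sites per region, there were 15 member regions in the control list and 23 in that from Rnmt cKO, 15 and 20 genes with an exonic region (12 in both lists), and 15 and 19 genes with a 5'UTR region (12 of them shared). The share within 50 nt of a start was then 100% and 82.6%, and the median percentile of the member regions among the regions kept was 35.5 and 59.4, against 70.0 and 67.6 over all regions. The control median of 35.5 was called the same only because the interval of the 70.0 was wide, 35.0 to 81.7. With scores above the list median, 20 and 27 regions remained, with 100% and 85.2% near a start. With basic transcripts only, the near-start shares were 65.6% and 50.0%, since fewer starts were available. A TOP-like run was found at the nearest start of 11.1% of the 5'UTR regions and within 5 nt of it for 40%. No paired analysis was possible because the list of either genotype came from a single library. Depth is unknown from the lists, so absence of a region says only that none was called, and a region in 1 list alone is not shown to differ between genotypes.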

Other observations

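Among 19 annotated genes with these prefixes that are not protein-coding, 1 had a region, Ndufb1-ps in the Rnmt cKO list. In introns of the members there was 1 control region, in Mrpl24 at base 87920616 of chromosome 3 (percentile 48.3), and 0 in the Rnmt cKO list.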
